A study of Homo sapiens with 191 samples.

Results

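The SRC family kinases were described by the accessible chromatin at their genes in GM12878, a human B lymphoblastoid cell line made by transformation with Epstein-Barr virus. The 9 genes were taken from a list set by name, namely BLK, LYN, FYN, LCK, FGR, YES1 and SRC of the family itself, the related kinase FRK, and CSK, the kinase that restrains the family. All 9 were found in the gene annotation. A region was counted for a gene when its centre lay in the gene body or within 10 kb on either side, which took 86 of the 50000 regions in the list for BLK, LYN and FYN and 27 for the other 6 genes. The windows of the 9 genes did not overlap, so each region belongs to 1 gene.

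The libraries were single-cell ATAC-seq, an assay in which the Tn5 transposase inserts adapters into open chromatin. The cells were fixed, permeabilised, transposed together without antibody staining and sorted singly into plates, with 96 libraries on plate 1 and 95 on plate 2, and all libraries formed 1 group. The authors pooled the cells before calling regions, so values of single cells, replicates and a contrasting condition are lacking, and a transformed line stands for B cells in culture and not for primary B cells. No test over samples was possible, and each value below is a description of 1 pooled list, set beside the same measure over 20090 protein-coding genes.

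SRC family kinases are tyrosine kinases attached to the inner face of the plasma membrane through lipid, where they start signalling from receptors that have no kinase domain of their own. In B cells LYN, BLK and FYN phosphorylate the cytoplasmic tails of CD79A and CD79B after antigen has bound, which recruits SYK, and LYN also phosphorylates inhibitory receptors such as CD22. In T cells LCK, held by CD4 and CD8, and FYN act on the CD3 chains in the same way and recruit ZAP70. CSK phosphorylates a tyrosine in the tail of these kinases and so closes them, and phosphatases such as CD45, the product of PTPRC, remove that phosphate. BLK is known mainly from B cells, LYN from B and myeloid cells, LCK from T cells, FYN from T cells and many other tissues, FGR from myeloid cells, SRC, YES1 and CSK from most tissues, and FRK from epithelia. These are general labels of use, and use of the kinases in this transformed line was not measured.

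The middle parts of 6 regions, the strongest of FYN, YES1, FGR and SRC and 2 more of FYN, are printed at the same length. Promoters come first and then regions away from them. The stretches do not stand for the whole family, since none of BLK, LYN, LCK, FRK or CSK is printed. They are read from the GRCh37 (hg19) reference along the strand of the gene, and none overlaps an exon of a protein-coding gene. Capitals mark matches to the consensus motifs used below.
FYN promoter, minus strand, chr6:112194656-112194806: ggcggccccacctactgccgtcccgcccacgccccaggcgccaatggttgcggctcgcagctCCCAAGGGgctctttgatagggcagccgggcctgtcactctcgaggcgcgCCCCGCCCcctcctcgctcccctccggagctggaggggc
YES1 promoter, minus strand, chr18:812640-812790: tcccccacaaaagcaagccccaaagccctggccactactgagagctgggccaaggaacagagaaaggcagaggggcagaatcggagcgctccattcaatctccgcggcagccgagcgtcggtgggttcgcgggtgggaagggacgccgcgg
FYN intron 2, minus strand, chr6:112127078-112127228: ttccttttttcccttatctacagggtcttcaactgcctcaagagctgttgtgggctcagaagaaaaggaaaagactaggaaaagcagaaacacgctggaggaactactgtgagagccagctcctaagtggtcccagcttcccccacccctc
FYN intron 3, minus strand, chr6:112085560-112085710: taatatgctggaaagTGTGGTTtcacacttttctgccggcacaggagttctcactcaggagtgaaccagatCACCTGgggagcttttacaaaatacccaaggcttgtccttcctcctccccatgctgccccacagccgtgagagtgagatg
FGR intron 1, minus strand, chr1:27959375-27959525: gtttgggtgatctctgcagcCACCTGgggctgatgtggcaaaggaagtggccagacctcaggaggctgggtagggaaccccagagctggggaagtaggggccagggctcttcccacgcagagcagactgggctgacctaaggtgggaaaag
SRC upstream, plus strand, chr20:35965064-35965214: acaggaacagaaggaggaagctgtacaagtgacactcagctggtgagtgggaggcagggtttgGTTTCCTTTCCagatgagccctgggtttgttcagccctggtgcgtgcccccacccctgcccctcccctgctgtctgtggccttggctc
The 2 promoters had a GC content of 74.8% for FYN and 64.9% for YES1. The FYN promoter stretch held a palindromic EBF1 consensus and a GC box of the SP/KLF type. The intron 2 and intron 3 stretches of FYN had a GC content of 50.3% and 51.7%, and the intron 3 stretch held a RUNX consensus and an E-box. The FGR stretch, with 61.6% GC, held 1 E-box, and the SRC stretch, with 60.3% GC, held an interferon-stimulated element.

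Regions crowded at 3 of the kinases. BLK had 23 regions, LYN 24 and FYN 39, against a median of 2 and an upper quartile of 3 over all protein-coding genes, and the other 6 kinases had between 2 and 8. The median over the 9 was 6. At least 1 region lay at each of the 9, as at 74.7% of protein-coding genes, so presence alone set none of them apart. A count of 23 or more, a limit chosen after the values were seen, was reached by these 3 and by 0.398% of all protein-coding genes. FYN ranked 6th among all genes by count, LYN 52nd and BLK 57th.

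These genes differ in length, so counts were also given per 100 kb of the gene with its flanks, with exact Poisson 95% intervals. The intervals cover counting error only, and regions cut from 1 broad peak are not independent. BLK had 23.5 regions per 100 kb (14.9 to 35.3), LYN 15.6 (9.96 to 23.1), FGR 18.6 (8.01 to 36.6), FYN 16.7 (11.9 to 22.9) and CSK 14.6 (5.36 to 31.8). LCK had 5.46 (1.13 to 16.0), FRK 3.34 (1.08 to 7.79), YES1 2.70 (0.558 to 7.90) and SRC 2.46 (0.298 to 8.88). The median over all protein-coding genes was 2.64 and the upper quartile 5.61. The intervals of BLK, LYN, FYN and FGR lay above that upper quartile, the interval of CSK reached just below it, and those of LCK, FRK, YES1 and SRC included the median of all genes. The order among BLK, FGR, FYN, LYN and CSK was within counting error.

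**Figure D1:**
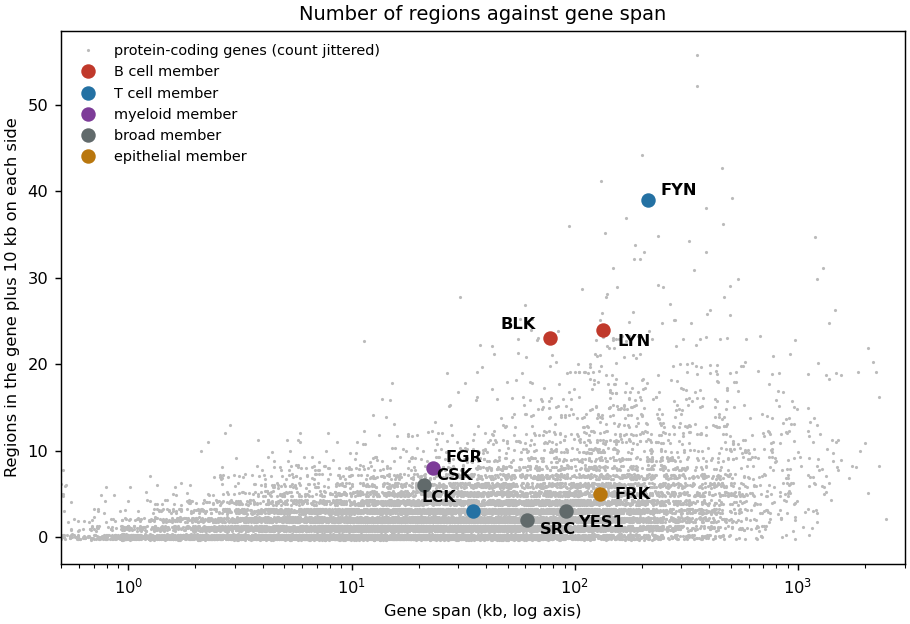
Number of regions (vertical axis) against gene span in kb (horizontal log axis) for all protein-coding genes (grey, with the count jittered for display) and the 9 kinases (coloured by cell use). FYN with 39, LYN with 24 and BLK with 23 regions stand above most genes of like span, and SRC with 2, YES1 with 3 and FRK with 5 lie within the grey band.

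Set against genes of like length the same 3 stood out. Among the 2009 genes in the span decile of BLK, the median gene had 2 regions and 7 genes had as many as BLK or more. Here and below such counts include the kinase itself. For LYN the median was 3 and 12 of 2009 genes had as many or more, and for FYN the median was 4 and 6 of 2009 had as many or more. FGR had 8 regions against a median of 1, and 45 of 2009 genes had as many or more. CSK had 6 against a median of 1. YES1 had exactly the median of its decile, 3, SRC its median, 2, and FRK had 5 against a median of 3. LCK had 3 against a median of 2, and 690 of 2009 genes of its span had as many or more.

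**Figure D2:**
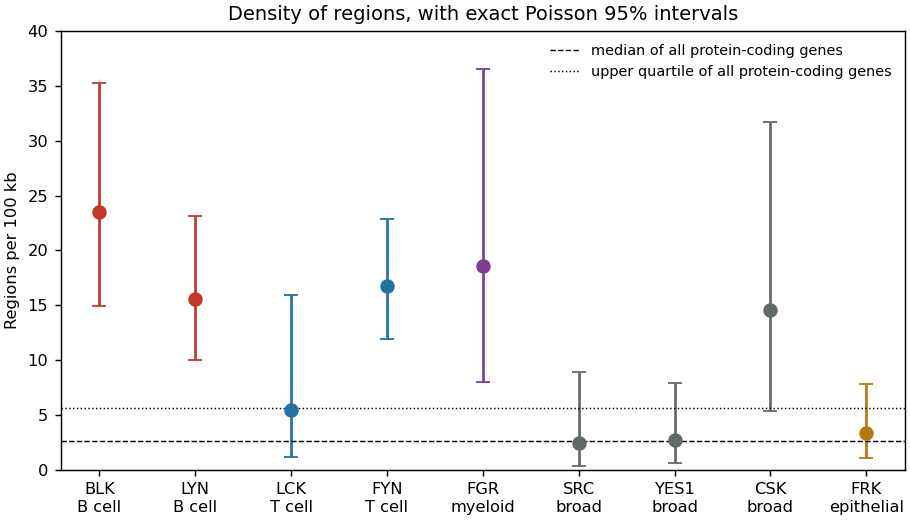
Regions per 100 kb of the gene plus 10 kb on each side (vertical axis) for each kinase, grouped by cell use, with exact Poisson 95% intervals as bars, and the median (2.64, dashed) and upper quartile (5.61, dotted) of all protein-coding genes. The lower bounds of BLK, LYN, FYN and FGR lie above the dotted line.

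Grouped by the cells they are known from, BLK and LYN together had 47 regions, or 18.6 per 100 kb (13.7 to 24.8). The T cell kinases FYN and LCK had 42, or 14.6 (10.5 to 19.7), and 39 of these belonged to FYN. FYN is also widely used and, as stated above, acts at the B cell receptor. BLK, LYN and FYN as 1 group had 86 regions, or 17.7 per 100 kb (14.2 to 21.9). The other 6 kinases had 5.61 (3.70 to 8.16). BLK, LYN and FYN were also the kinases with the most regions, so that grouping follows the values. No B cell minus T cell difference was computed with FYN among the B cell kinases. FGR, grouped as myeloid by its general label and not by its use in this line, had 18.6 (8.01 to 36.6). The broadly used SRC, YES1 and CSK together had 4.71 (2.35 to 8.43), and the epithelial FRK 3.34 (1.08 to 7.79). The interval of the B cell kinases lay above those of the broad and epithelial kinases and overlapped those of the T cell and myeloid kinases. Taking LCK alone as the T cell kinase gave 18.6 for B cell and 5.46 for T cell use, so the closeness of these groups rests on FYN. With FYN placed among the broad kinases these had 10.7 (7.95 to 14.1), an interval that overlapped that of the B cell kinases. The B cell minus broad difference was then 7.93 per 100 kb (1.83 to 14.0, normal approximation, counting error only). It was not tested, and the interval treats regions as independent, while the 47 at the B cell kinases came from 36 called peaks. LYN alone, with 15.6, was less dense than FYN alone, with 16.7, and this grouping was not repeated without BLK. CSK alone had 14.6 (5.36 to 31.8), below the B cell kinases together, with an interval that overlapped theirs. The score is the -log10 of the q-value that the authors' peak caller gave each region, with a median of 31.6 over the list. The median score was 42.5 at the B cell kinases, against 30.9 at the T cell, 30.1 at the myeloid, 30.1 at the broad and 22.8 at the epithelial kinases. The 5035 strongest regions of the list (5000, with ties at the limit) took in 7 of the 47 at BLK and LYN and 3 of the 42 at the T cell kinases. They took in 1 of 11 at the broad kinases, 0 of 8 at FGR and 0 of 5 at FRK. With so few regions per group, nothing was read from these counts. At least 1 such region lay at 4 of the 9 kinases, namely BLK, LYN, FYN and YES1, as at 26.9% of protein-coding genes. Of all regions at the 9 kinases, 9.73% were among these strongest regions, against 10.1% of the list.

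**Figure D3:**
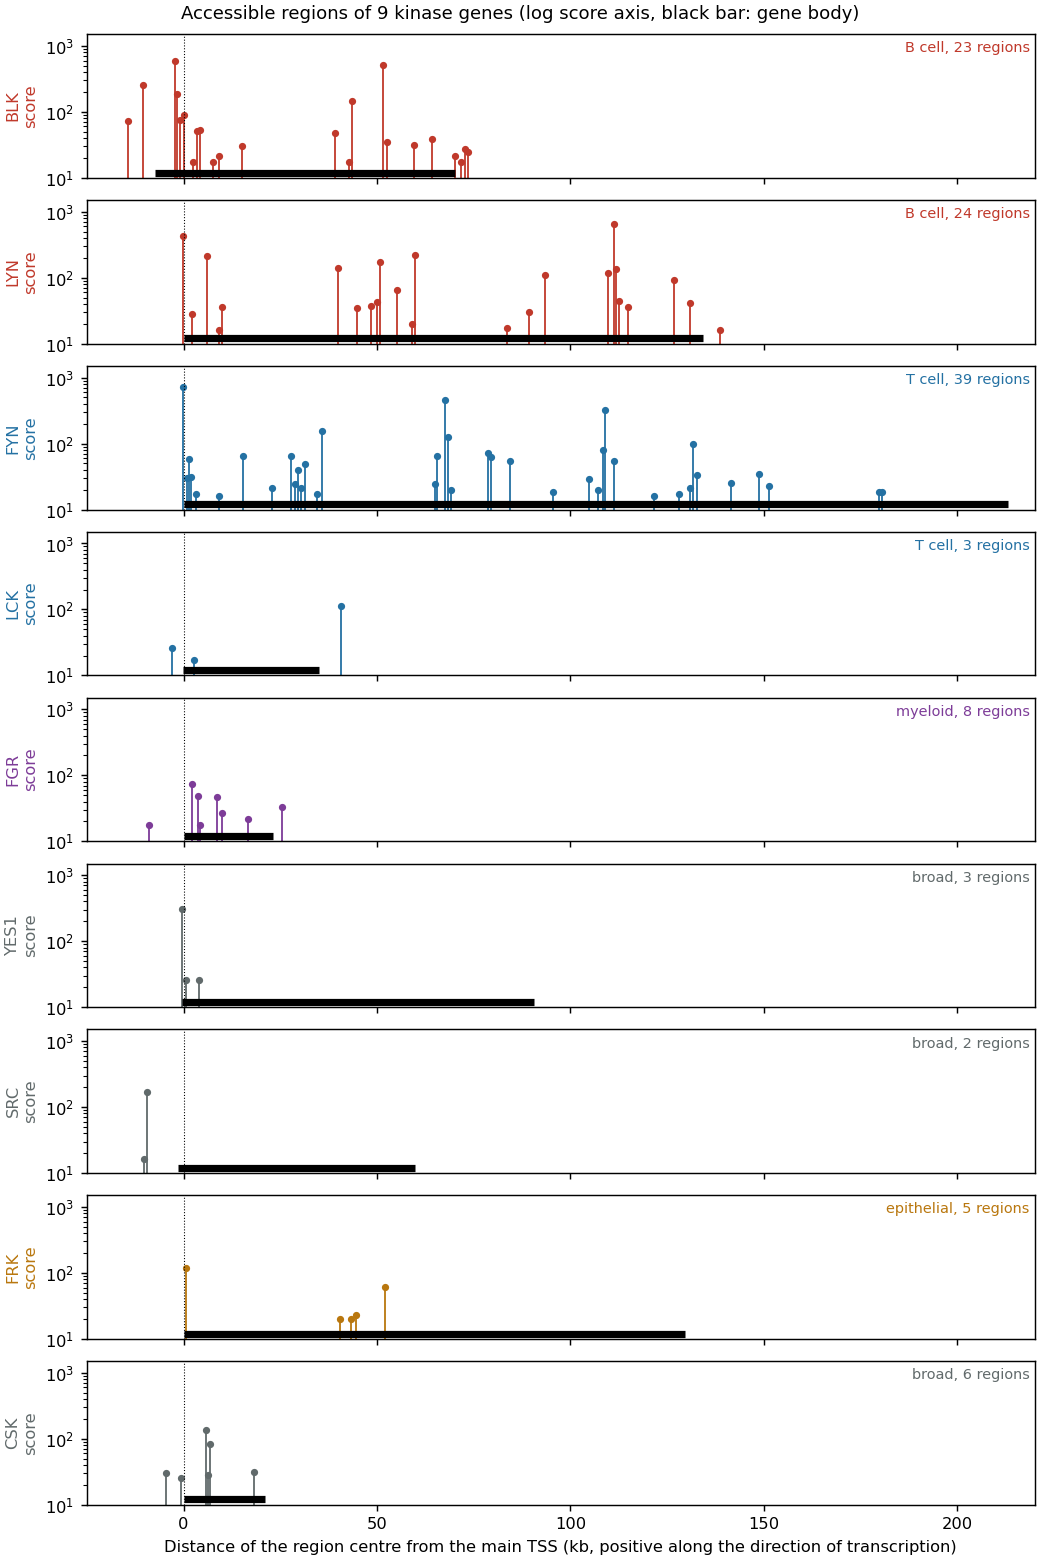
Each stem is 1 accessible region, placed by the distance of its centre from the main TSS in kb along the direction of transcription (horizontal axis), with its score, -log10 of the q-value, as height (vertical log axis), and the black bar is the gene body. BLK, LYN and FYN have regions near the main TSS and others more than 50 kb downstream, with gaps between them, while YES1 has its 3 regions within 5 kb of the TSS and SRC has none in its gene body.

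BLK lies on the plus strand of chromosome 8 at 11344403 to 11422108 (hg19), with a main transcription start site (TSS, that of the MANE Select transcript) at 11351896. The region at this TSS, at 11351891 to 11352391, had a score of 89.4. It was 1 of 4 listed regions that were cut from a single called peak and together spanned 3026 bp. The highest of these, with a score of 596.8, lay at 11349366 to 11349866, 2280 bp upstream of the main TSS, and its neighbours in the same peak scored 186.6 and 74.9. A further region 10400 bp upstream of the main TSS, at 11341246 to 11341746, scored 253.2. The strongest region within 1 kb of any annotated BLK TSS had a score of 507.7, but it lay at 11403178 to 11403678 in intron 2, 51532 bp downstream of the main TSS, and the start beside it is that of a transcript annotated as a retained intron. So 5 regions of BLK, upstream and downstream, had higher scores than the region at its main TSS.

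LYN lies on the plus strand of chromosome 8 at 56792394 to 56926728 and has 3 annotated TSSs. Its promoter region, at 56792052 to 56792552, was centred 92 bp upstream of the main TSS and scored 435.1. The region at 56852017 to 56852517, 526 bp from an internal TSS of protein-coding transcripts, scored 222.7. The highest score of the gene, 654.8, was far inside it, at 56903486 to 56903986 in intron 10, 111342 bp downstream of the main TSS. It was 1 of 4 listed regions of a single called peak, which together spanned 3343 bp, and the other 3 scored between 44.2 and 133.5. The first intron held 11 of the 24 regions, promoter regions left out, among them those of score 212.0 and 174.1. A score over 100 was given to 9 of the 24 regions at LYN (37.5%), against 5 of 39 at FYN (12.8%) and 5 of 23 at BLK (21.7%).

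FYN lies on the minus strand of chromosome 6 at 111981535 to 112194655 and has 27 annotated TSSs. Its main promoter region, at 112194481 to 112194981, was centred 76 bp upstream of the TSS and scored 726.3, the highest value at any of the 9 kinases. The other 6 promoter regions of FYN lay downstream of it at internal starts and scored between 24.3 and 73.1. One of these, at 112114862 to 112115362, was centred 3 bp from a protein-coding start and scored 62.6. Away from the promoters, a region in intron 2 at 112126903 to 112127403 scored 451.9, a region in intron 3 at 112085385 to 112085885 scored 320.5 and another in intron 2 scored 157.6. Introns after the first held 27 of the 39 regions, promoter regions left out. So FYN, unlike LYN and BLK, had its strongest region at its main TSS, and its median score of 31.6 equalled that of the list.

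LCK, the kinase bound to CD4 and CD8 in T cells, lies on the plus strand of chromosome 1 at 32716845 to 32751766. No region was centred within 1 kb of any of its 12 annotated TSSs. The closest to the main TSS lay 2586 bp downstream in intron 1, at 32719202 to 32719702, and had a score of 17.3, near the lowest of the list (16.0). The region upstream, with a score of 25.7, lay inside the gene body of FAM167B. The highest of the 3, with a score of 112.1, lay in the downstream flank within 1 kb of a TSS of HDAC1, a histone deacetylase gene, and was the sole region of the 9 kinases at a TSS of another protein-coding gene. Without the flanks LCK kept 1 region.

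FGR, known from neutrophils and monocytes, lies on the minus strand of chromosome 1 at 27938575 to 27961696. No region was centred within 1 kb of its main TSS. The closest, at 27959200 to 27959700 in intron 1, 2246 bp downstream, was also its highest, with a score of 73.1. A region 85 bp from an internal protein-coding start, 8701 bp downstream of the main TSS, scored 47.4, and a region near another internal start scored 27.2. The other named regions of FGR scored 49.1 in intron 1 and 33.1 in the downstream flank. The high density of FGR thus came from 8 regions of low to middling score over a short gene.

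YES1 lies on the minus strand of chromosome 18 at 721588 to 812547. Its promoter region, at 812465 to 812965, was centred 472 bp upstream of the main TSS and scored 302.3. The other 2 regions each scored 25.7, of which 1 was also a promoter region, 523 bp downstream of the main TSS, and 1 lay further into intron 1. SRC, the founding member of the family, lies on the plus strand of chromosome 20 at 35973088 to 36034453. No region was centred in its gene body or within 1 kb of any of its 11 TSSs. Its 2 regions belonged to 1 called peak in the upstream flank, with scores of 167.9, at 35964889 to 35965389, and 16.0. The stronger was 9404 bp upstream of the main TSS. A region within 1 kb of any TSS was found at 76.2% of the protein-coding genes with 11 or 12 TSSs, so LCK and SRC were among the minority of such genes without one.

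FRK lies on the minus strand of chromosome 6 at 116252312 to 116382054, with 1 annotated TSS. Its promoter region, at 116381225 to 116381725, was centred 579 bp downstream of the TSS in exon 1 and scored 117.9. Its other 4 regions lay in intron 1, more than 40 kb into the gene, and scored between 20.0 and 60.9. CSK lies on the plus strand of chromosome 15 at 75074421 to 75095538 and has 14 annotated TSSs. The region at its main TSS, centred 593 bp upstream, scored 25.7. Its highest score, 137.5, belonged to a region at 75079851 to 75080351, 5680 bp downstream and near an internal protein-coding start, and 2 more regions of the same called peak scored 28.6 and 82.1. A region near the start of a retained intron transcript scored 31.6 and the region in the upstream flank 30.1.

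A region lay within 1 kb of any TSS at 7 of the 9 kinases, LCK and SRC being the exceptions, against 57.2% of all protein-coding genes. At the main TSS the count was 6 of 9, now without FGR, against 53% of the genes with such a TSS. Nothing about the family was read from these shares, which rest on 9 genes. Both B cell kinases had a region at the main TSS, as did 4 of the other 7. The scores there were 726.3 for FYN, 435.1 for LYN, 302.3 for YES1, 117.9 for FRK, 89.4 for BLK and 25.7 for CSK, so the B cell kinase BLK came below FRK, which is known from epithelia.

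**Figure D4:**
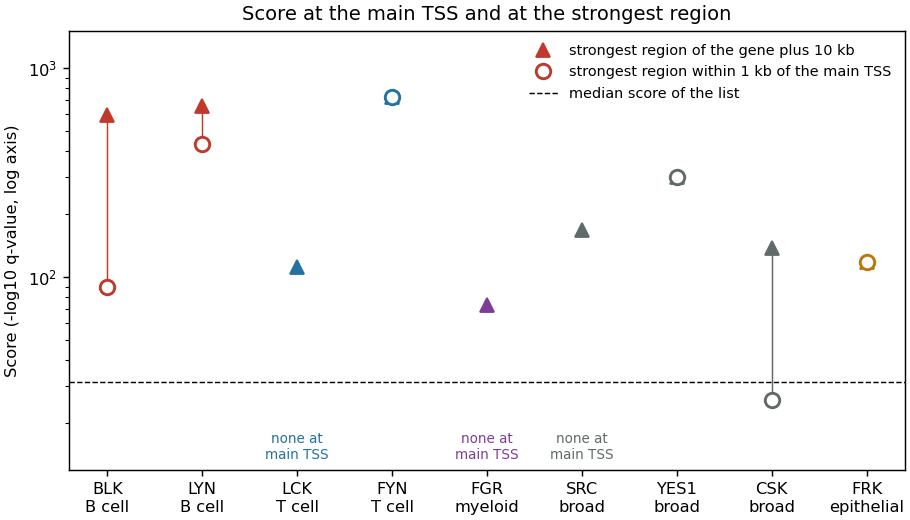
Scores (-log10 q-value, vertical log axis) of the strongest region within 1 kb of the main TSS (open circles) and of the strongest region of the gene plus 10 kb (triangles) for each kinase, with the median score of the list (31.6) dashed. Circle and triangle coincide for FYN, YES1 and FRK, lie apart for BLK, LYN and CSK, and LCK, FGR and SRC have no circle.

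Base composition differed between these start sites. Within 500 bp on either side, the main TSSs of LYN, FYN, YES1, SRC and CSK were CpG-rich (GC content of at least 50% and an observed to expected CpG ratio of at least 0.6), with ratios of 0.83, 0.909, 0.855, 0.74 and 0.865 in that order. Those of BLK, LCK, FGR and FRK were not, with ratios of 0.304, 0.308, 0.463 and 0.248. Of the CpG-rich group 4 of 5 had a region at the main TSS, SRC being the exception, against 71.3% of all CpG-rich main TSSs. Of the CpG-poor group 2 of 4, BLK and FRK, had one, against 18.9% of all CpG-poor main TSSs. The part of base composition in these scores was not tested.

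The regions were placed relative to start sites. Of those at the 9 kinases, 9 were centred within 1 kb of the main TSS of their kinase, 25 within 5 kb and 38 within 10 kb. Counting the main TSS of any gene, 8.85% lay within 1 kb, against 34.7% of the 36912 regions of the list that lie at a protein-coding gene, and 35.4% within 10 kb, against 56.2%. Within 1 kb of any TSS of any gene lay 20.4%, against 44.3%. These shares rest mainly on the long genes BLK, LYN and FYN and were not tested. Promoters of any transcript of the kinase held 22, and outside these first introns held 33 (29.2%), later introns 40, the flanks 7 upstream and 7 downstream, exons 2, and 2 lay in the gene body outside the main transcript. The median GC content was 54.9% in the 22 promoter regions and 47.7% in the other 91, against 51.1% over the list. The regions came from 89 called peaks.

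Consensus letters of blood cell factors were counted in the regions on both strands. A match is a description and not a binding site. The PU.1/SPIB consensus GAGGAAGT was in 12 of the regions (10.6%), against 5.14% of the list, and 6 of these were at BLK and LYN, 5 at FYN and 1 at FGR. The octamer ATTTGCAT, read by OCT2 in B cells, was in 8 (7.08%), against 3.30%, and 4 of these were at LYN, its promoter region among them. RUNX letters (TGTGGTT) were in 16 (14.2%), against 11.6%, and 9 of these were at FYN. EBF1 letters (CCCNNGGG, a palindrome) were in 23.9%, against 23.8%, the E-box CAGGTG in 39.8%, against 42.3%, and the NF-kB consensus in 9.73%, against 11.5%. The ETS consensus CCGGAAG was in 4.42%, against 8.34%, and the GC box GGGCGGGG in 10.6%, against 15.0%. No region at the 9 kinases held both the PU.1/SPIB and the ETS word. With 12 and 5 regions holding them, and the joint share of the list not counted, nothing was read from this. The region of highest score at LYN, in intron 10, held PU.1/SPIB, E-box and EBF1 letters, and the FYN region in intron 3 held PU.1/SPIB, RUNX, E-box and interferon-stimulated element letters. These shares rest on few regions, many of them from the same 3 genes. They were not adjusted for place: 20.4% of the regions at the 9 kinases lay within 1 kb of any TSS, against 32.7% of the list.

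Of 37 genes that act with these kinases, 25 (67.6%, exact binomial 95% interval 50.2 to 82.0) had a region within 1 kb of a TSS, against 57.2% of all protein-coding genes. Among targets of the B cell receptor kinases it was 7 of 10, with a median of 5 regions per gene. BTK, the kinase downstream of SYK, scored 566.9 at a promoter shared with RPL36A, and PLCG2, the phospholipase that BTK activates, scored 273.1. CD22, an inhibitory receptor that LYN phosphorylates, had none. Among targets of the T cell receptor kinases it was 4 of 8, with a median of 1.5 regions. LCP2, an adaptor, scored 71.3, while CD3E and CD4 had none. At the main TSS the counts were 7 of 10 for the B cell and 1 of 8 for the T cell receptor targets, against 53% of all genes. These counts rest on few genes, and their difference was not tested.

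Regulators of the family had promoter regions in shares whose exact 95% intervals all included the 57.2% of all protein-coding genes. Of the phosphatases 5 of 6 had one (35.9% to 99.6%), led by PTPRE with 480.9 and PTPN6, which encodes SHP-1, with 244.4. PTPRC, which encodes CD45, had none within 1 kb of a TSS. All 4 membrane adaptors that can hold CSK had one (39.8% to 100%), led by PAG1 with 108.2 and DOK1 with 82.1, at a promoter shared with LOXL3. Among other regulators it was 4 of 5 (28.4% to 99.5%), with the ubiquitin ligases CBLB at 629.5 and CBL at 47.4, and the adaptor SLA had none. Among related kinases it was 1 of 4 (0.631% to 80.6%), with PTK6 at 135.5, while MATK, a relative of CSK, had none.

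The cell type of the line was checked against markers. A promoter region was found at 4 of 5 B cell markers (CD79A, CD79B, MS4A1 and PAX5, with scores between 34.7 and 106.3) and at 0 of 4 T cell markers (CD3D, CD3E, CD3G and CD2). It was also found at 2 of 4 myeloid markers, CD14 with 33.1 and LYZ with 18.7, and at 2 of 4 epithelial markers, EPCAM with 33.1 and CDH1 with 24.3. These scores lay between 18.7 and 33.1, against a median of 31.6 over the list, and FGR and FRK, the kinases known from those types, had promoter scores of 47.4 and 117.9.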

How the data were processed

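The deposited file held 1 list of 50000 regions, each 501 bp as written. Per the paper's methods the authors mapped read pairs to hg19, removed duplicate, low-quality and mitochondrial reads, called summits on the pooled cells and kept the regions of lowest q-value. Single libraries were also filtered, and whether those removed had entered the pooled calls is not stated there. Tools in the submitters' processing notes are Bowtie2 2.1.0, Picard 1.79 and MACS2 (version not given). The score is the deposited -log10 of the q-value and was used to rank and describe regions within the list. Depth is unknown from this list, deeper cells weigh more in pooled calls, and removal of ambiguous reads can lower scores at near-identical copies. The 191 libraries formed 1 group, so no test was made, and the absence of a region says that none was in this list, not that chromatin was closed.

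Genes were those of GENCODE 44 lifted to GRCh37 (20090 protein-coding symbols, chromosomes 1 to 22 and X). Regions were placed by their centre, with a promoter window of 1 kb and flanks of 10 kb, in 1-based coordinates. The main TSS was that of the MANE Select transcript (18872 genes) or otherwise the Ensembl canonical one, and 279 genes had neither. Intervals are exact at 95%, apart from those of differences in density, which use a normal approximation at 95% and cover counting error only. The placing of regions was tested on simulated data. The members, lists and motifs were chosen with earlier results of these data known. Genes named were the 9 kinases, the 2 strongest and the first 2 without a promoter region per partner role, and neighbours with a TSS within 1 kb of a counted region. A few genes of this rule are not reported here. Regions named were all promoter regions and the 3 highest scores outside promoters of each kinase. FAM167B, the other regions of the same called peaks, and the partners that share a promoter were added once their values had been seen. Promoter window, TSS set, flank, part of the list and grouping were varied as alternatives. Software was Python 3.11.15 with Biopython 1.88, scipy 1.17.1, pandas 2.3.3, numpy 2.4.6 and matplotlib 3.10.9.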

Additional observations from a re-analysis of the deposited data

How the results depend on the processing

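Of 93 alternatives, 75 moved a value by less than 1.5 times or its counting interval and 18 moved it further, and there were no calls from a test to lose. The median of 6 regions per kinase became 12 with flanks of 50 kb and 3 with the regions at or above the median score. The density of B cell minus T cell kinases was 4.07 per 100 kb (-2.85 to 11.0), with FYN counted as a T cell kinase. It became 13.19 (5.02 to 21.35) with FYN placed with the broad kinases and 5.41 (0.0136 to 10.8) with the regions at or above the median score. It was 0.969 (-6.66 to 8.60) without BLK and 8.96 (-1.62 to 19.5) without LYN, these 2 added after seeing the data. The density of B cell minus myeloid kinases was 0.0957. It was negative without flanks (-7.56), with each called peak counted once (-1.95) and without BLK (-3.001), within counting error each time. Regions at a TSS of another gene became 2, in place of 1, with a window of 2.5 kb. Kinases with a promoter region numbered 6 with a window of 500 bp, where FRK was lost, and 5 with the outermost TSS alone. For single kinases 40 of 54 alternatives stayed within 1.5 times. SRC had 0 regions without flanks and FRK 18 with flanks of 50 kb. With each called peak counted once, BLK had 17, LYN 19 and FYN 30. No paired analysis was possible because the libraries form 1 group and the regions were called on pooled cells. The pooled list gives no reads, so no limit of detection can be stated for a gene without a region.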

Other observations

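Protein likeness of the kinases was set beside the density of regions at their genes. The proteins were translated from the longest reading frame of the main transcript and aligned in pairs. FYN and YES1, the closest of all pairs with 75.2% of aligned residues identical, had 16.7 and 2.70 regions per 100 kb. YES1 and SRC were 74.8% identical and had 2.70 and 2.46. FYN and FGR were 72.6% identical and had 16.7 and 18.6, and FYN and SRC were 70.8% identical and had 16.7 and 2.46. BLK and LYN, the kinases known from B cells, were 62.4% identical and had 23.5 and 15.6. BLK was closest to LCK, at 63.5%, which had 5.46. CSK was between 39.7% and 42.1% identical to the others. The closest pairs thus included some with like and some with unlike densities, and no measure over all pairs was computed.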
